A study of Mus musculus with 30 samples.

Results

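The core circadian clock was followed through 10 genes in mouse forelimb buds over a day: Per1, Per2, Per3, Cry1, Cry2, Ciart, Nr1d1, Nr1d2, Arntl and Dbp. They were taken by gene symbol from the FPKM table and joined to the count table by Ensembl identifier. All 10 were found in both tables, among 55052 genes with an FPKM value and 50833 counted genes, and all 10 passed the filter on low counts in every fit. All are autosomal protein-coding genes. On GRCm38, the assembly of mm10, the GENCODE annotation places Cry1 at chr10:85131700-85185064 and Cry2 at chr2:92403646-92434043. The period genes Per1, Per2 and Per3 lie at chr11:69095217-69109960, chr1:91415982-91459324 and chr4:151003652-151044665, and Ciart at chr3:95878503-95882251. Nr1d1 and Nr1d2 lie at chr11:98767932-98775333 and chr14:18204054-18239127, Arntl at chr7:113207465-113314126 and Dbp at chr7:45705088-45710203. The symbols are those of canonical clock genes, but the sources used here give no clock hour of injection or collection. The methods state only that females were weighed in the morning, before a timed injection. Time is therefore stated only as hours after injection.

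The series holds 30 polyA RNA-seq libraries of forelimb buds from WT Swiss Albino embryos. Pregnant females received 1 intraperitoneal injection at E10.5, either of C59 (Wnt-C59, an inhibitor of porcupine, the enzyme that WNT ligands need for secretion) or of DMSO as solvent control, and buds were collected 1, 6, 12, 18 or 24 h later. The 2 treatments and 5 times give 10 groups of 3 libraries, each library from 1 pair of buds, and each holds 18188636 to 38974885 counted reads. The drug reached the embryo through the mother, the control solution lacked the methylcellulose and Tween-20 of the C59 solution, and embryos of both sexes were used. The methods place the replicates of a condition and time in 3 or more litters, without saying which mother each library came from. P-values measure the spread between these libraries.

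In mammals the clock is a feedback loop within each cell. ARNTL (also called BMAL1) pairs with CLOCK and switches on genes that carry E-boxes, among them the Per, Cry, Ciart and Nr1d genes, and the PER, CRY and CIART proteins then repress that pair. NR1D1 and NR1D2 (REV-ERBs) repress Arntl through ROR elements, and DBP is an output factor that acts on D-boxes, so that in a running clock Arntl peaks about opposite to Nr1d1, Dbp and Per. Such rhythms are well known in adult liver and other organs and are generally weak or absent in early embryonic tissue. A rhythm set by the time of day would be seen in both treatments alike only if C59 left it unchanged and injection hours matched. Neither condition was tested. The courses address only whether the treatments shared a change over the day. Because embryos also grow older from 1 to 24 h, and only 1 day was sampled, a daily rhythm and a developmental change cannot be told apart.

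The promoters show which members carry the letters of these elements near the start of transcription. RefSeq promoters (GRCm38.p6, 250 bases before to 50 after the start, 300 in all) were found for 9 of the 10 members, and Per2 has no entry. Both strands were searched for the E-box CACGTG, the D-box TTATGTAA or TTACGTAA, and the ROR element core TAGGTCA, none of which overlapped another here. The windows below, printed 5′ to 3′ on the strand of the gene with the matched letters in capitals, are those of the 5 members with a match.
Ciart, chr3:95882245-95882364, minus strand, 3 E-boxes: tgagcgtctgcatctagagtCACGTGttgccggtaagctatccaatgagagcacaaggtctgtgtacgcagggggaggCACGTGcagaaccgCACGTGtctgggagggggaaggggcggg
Per1, chr11:69098763-69098810, plus strand, 1 E-box: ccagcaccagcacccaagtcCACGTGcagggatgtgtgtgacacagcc
Cry1, chr10:85185087-85185134, minus strand, 1 E-box: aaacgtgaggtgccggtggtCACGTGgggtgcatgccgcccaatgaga
Per3, chr4:151044796-151044890, minus strand, 2 D-boxes: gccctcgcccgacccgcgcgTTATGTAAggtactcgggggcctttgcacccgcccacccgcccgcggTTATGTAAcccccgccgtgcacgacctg
Arntl, chr7:113207530-113207559, plus strand, 1 ROR element core: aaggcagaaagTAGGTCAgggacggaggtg
The E-box was present in 7.15% of 32851 RefSeq mouse promoters of this length, the D-box in 1.06% and the ROR element core in 2.61%. Cry2, Dbp, Nr1d1 and Nr1d2 held none of these letters in their windows, which says nothing of sites elsewhere in the genes. A match is a match of letters and not a measured binding site.

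All 10 genes were transcribed in the limb bud, at modest levels. On the FPKM scale, which is per length, the 15 DMSO libraries averaged 11.6 ± 0.733 FPKM (SD, n = 15) for Cry1, the most abundant member. Cry2 followed at 6.27 ± 0.824 and Per1 at 6.10 ± 0.497 FPKM, and their ranges overlapped. Dbp at 3.54 ± 0.998 and Arntl at 3.37 ± 0.399 FPKM came next, with overlapping ranges, and then Nr1d2 (1.80 ± 0.184), Ciart (1.78 ± 0.416) and Per3 (1.43 ± 0.196). Per2 (0.682 ± 0.181) and Nr1d1 (0.636 ± 0.0840 FPKM) were lowest and also overlapped. In this order the ranges separated Cry1 from Cry2, Per1 from Dbp, Arntl from Nr1d2 and Per3 from Per2. In a bulk sample, fewer expressing cells and less RNA per cell cannot be told apart. The depth behind the lowest member, Nr1d1, was 22 to 81 reads a library, against 620 to 1513 for Cry1, so its fold changes are the least precise.

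The swing of the clock genes over the day was not below that of genes in general. The median log2 range over the 5 times was 0.41 for the 10 members and 0.36 for all genes in DMSO. In C59 these medians were 0.71 and 0.57. In DMSO, the ratio of the highest to the lowest of the 5 group means ran from 1.15 for Cry1 to 1.84 for Dbp, with a median of 1.34 over the 10 members. In C59 it ran from 1.29 for Per1 to 2.66 for Per2, with a median of 1.63. The values below are CPM, the usual scaling of counts to library size, here with TMM factors over all 30 libraries. The log2 differences and 95% intervals are from the edgeR quasi-likelihood fit, with p-values adjusted over all genes tested.

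**Figure D1:**
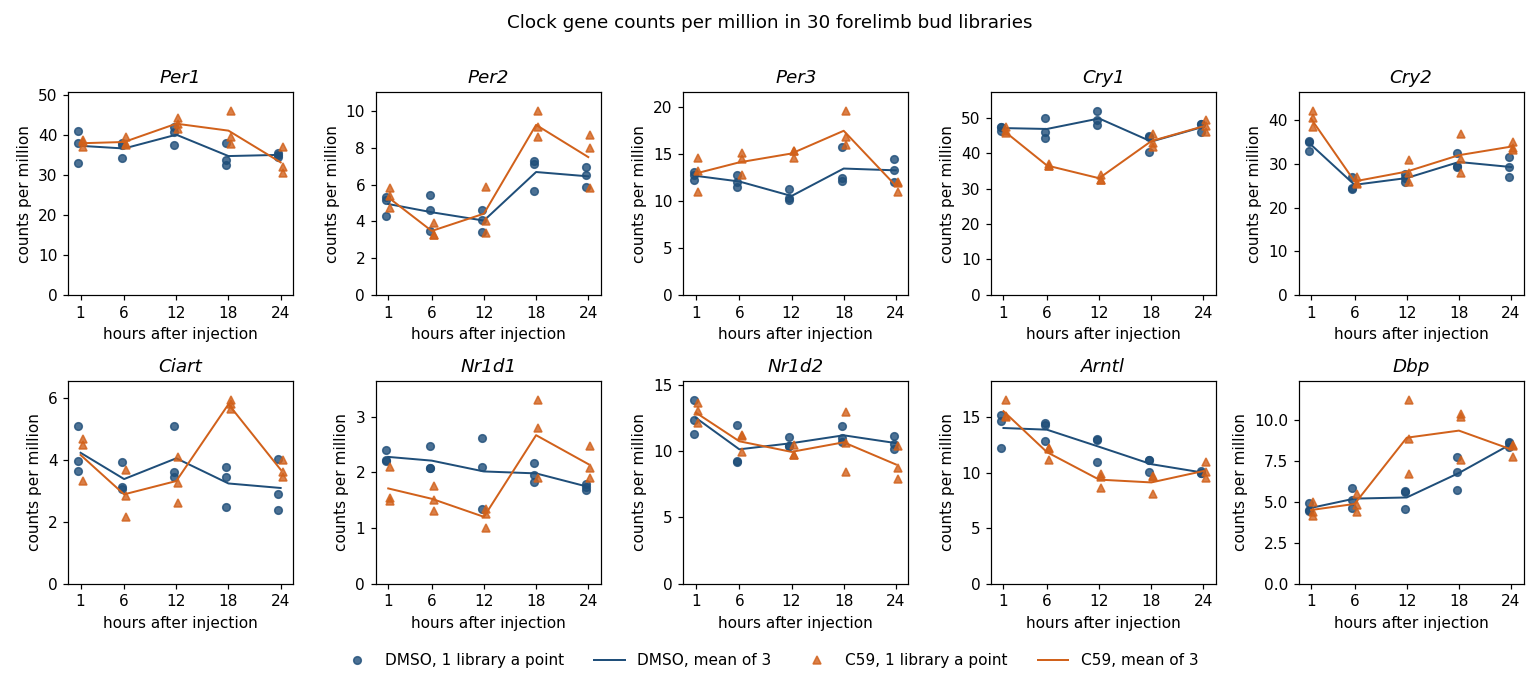
CPM of the 10 clock genes (vertical axes from 0, 1 panel a gene) by hours after injection in DMSO (circles) and C59 (triangles), 1 point a library and lines through the means of 3. Cry1 in C59 dips at 6 and 12 h to between 32.5 and 36.9 CPM, below all 15 DMSO libraries, and Per2 and Ciart in C59 are highest at 18 h.

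Of the repressors, Cry1 gave the clearest response to C59. In DMSO its libraries read 47.5, 47.4 and 46.4 CPM at 1 h, 46.1, 44.4 and 49.999 at 6 h, 52.0, 49.5 and 48.0 at 12 h, 44.9, 40.5 and 44.5 at 18 h, and 48.3, 46.0 and 48.2 at 24 h. In C59 they read 47.3, 45.7 and 46.3 CPM at 1 h, 36.9, 36.4 and 36.3 at 6 h, 33.8, 32.6 and 32.5 at 12 h, 42.9, 45.6 and 41.9 at 18 h, and 47.7, 49.3 and 45.9 at 24 h. The 6 C59 libraries of 6 and 12 h thus lay below every DMSO library of any time, and at 1, 18 and 24 h the treatments overlapped. Cry1 was lower in C59 by a log2 difference of -0.36 ± 0.06 (SE) at 6 h (adjusted p = 0.00106) and of -0.60 ± 0.06 at 12 h (adjusted p = 1.94e-05). At 18 h the difference was 0.02 (95% interval -0.19 to 0.23) and at 24 h 0.01 (-0.13 to 0.16). Axin2, a direct target of WNT signalling that serves as the check of the drug, was also low at 6 and 12 h, but its course differed. At 1 h its log2 difference of -0.19 already passed the test (adjusted p = 0.0282), while that of Cry1 was -0.02 (adjusted p = 0.897). Axin2 was lowest at 6 h (-1.97) and stood at -1.45 at 12 h, the hour at which Cry1 was lowest. Axin2 came back to -0.16 and -0.08 at the last 2 times, where it no longer passed the test.

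Cry2, the other cryptochrome, moved with time in both treatments instead. In DMSO it read 32.9, 35.3 and 35.0 CPM at 1 h, 24.4, 26.9 and 24.3 at 6 h, 27.6, 26.8 and 25.9 at 12 h, 29.3, 29.5 and 32.5 at 18 h, and 29.2, 27.0 and 31.6 at 24 h. In C59 the readings were 40.5, 38.4 and 42.2 CPM at 1 h, 25.6, 25.5 and 26.9 at 6 h, 30.9, 28.0 and 25.8 at 12 h, 31.1, 28.0 and 36.8 at 18 h, and 35.0, 33.1 and 33.7 at 24 h. In CPM the 1 h libraries were the highest of their treatment in DMSO and in C59, with no overlap with any later library. On the FPKM scale they overlapped later libraries in both treatments. There DMSO 24 h replicate 3 (7.30) lay above DMSO 1 h replicate 1 (7.12), and C59 18 h replicate 3 (8.20) above C59 1 h replicate 2 (8.06). From 1 to 12 h Cry2 fell by 0.36 on the log2 scale in DMSO (adjusted p = 0.00145) and by 0.51 in C59 (adjusted p = 0.000205), and from 6 to 18 h it rose by 0.27 and 0.30. The latter rise was lost without C59 6 h replicate 1 or 2 or C59 18 h replicate 3 (adjusted p = 0.0545 to 0.0722). No time point separated the treatments past the test, although all 3 C59 libraries of 1 h were above all 3 DMSO libraries (log2 difference 0.23, adjusted p = 0.0646).

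Per2 had the widest range of the 10 members over all groups. In DMSO it read 5.36, 5.20 and 4.30 CPM at 1 h, 4.61, 5.42 and 3.48 at 6 h, 3.44, 4.06 and 4.64 at 12 h, 7.30, 7.12 and 5.67 at 18 h, and 6.95, 5.90 and 6.54 at 24 h. In C59 it read 4.71, 5.39 and 5.84 CPM at 1 h, 3.24, 3.92 and 3.29 at 6 h, 5.88, 4.04 and 3.36 at 12 h, 8.61, 10.04 and 9.16 at 18 h, and 7.999, 5.82 and 8.72 at 24 h. In both treatments all 18 h libraries were above all libraries of 1 and 6 h. Per2 rose from 6 to 18 h by a log2 difference of 0.57 ± 0.17 in DMSO (adjusted p = 0.0134) and 1.41 ± 0.20 in C59 (adjusted p = 4.22e-05). Between 12 and 24 h it rose by 0.68 and 0.75. The DMSO rise from 6 to 18 h missed the test without DMSO 6 h replicate 3 or DMSO 18 h replicate 2 (adjusted p = 0.0565 to 0.0682). At 18 h the 3 C59 libraries lay above the 3 DMSO libraries, but the difference of 0.48 (0.15 to 0.81) did not pass (adjusted p = 0.0882).

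Per3 was highest on average at 18 h in C59, at 17.5 CPM. In DMSO the mean was 13.5 CPM at 18 h and 13.3 CPM at 24 h, and on the FPKM scale 24 h was the higher (1.59 against 1.56). The net change of Per3 from 12 to 24 h had opposite signs in the treatments. In DMSO it read 12.2, 12.7 and 13.1 CPM at 1 h, 11.5, 12.0 and 12.8 at 6 h, 10.3, 10.1 and 11.3 at 12 h, 15.7, 12.2 and 12.5 at 18 h, and 14.5, 12.0 and 13.3 at 24 h. In C59 it read 11.005, 13.2 and 14.6 CPM at 1 h, 12.8, 14.5 and 15.1 at 6 h, 15.3, 14.5 and 15.4 at 12 h, 16.8, 19.6 and 16.0 at 18 h, and 11.9, 10.9 and 12.0 at 24 h. At 12 h the 3 C59 libraries were all above the 3 DMSO libraries, by a log2 difference of 0.52 ± 0.10 (adjusted p = 0.00149). From 12 to 24 h Per3 rose by 0.33 in DMSO (adjusted p = 0.0231) and fell by 0.40 in C59 (adjusted p = 0.0121). The DMSO rise missed the test without any 1 of 4 libraries (DMSO 12 h replicates 1 and 2, DMSO 24 h replicates 1 and 3, adjusted p = 0.0562 to 0.0984), and the C59 fall without C59 24 h replicate 2 (adjusted p = 0.0552) or on the FPKM scale with a pseudocount of 0.1 (adjusted p = 0.0567). Per1, the third period gene, lay between 32.5 and 41.9 CPM in DMSO and between 30.5 and 46.1 CPM in C59, and no time point separated the treatments past the test. At 12 h the difference passed with upper-quartile factors (0.18, adjusted p = 0.0386) and on the FPKM scale by limma (0.24 with a pseudocount of 1, adjusted p = 0.027), and at 18 h with all 30 libraries in the fit (0.24, adjusted p = 0.0277). In C59 Per1 was highest on average at 12 h (44.2, 41.4 and 42.9 CPM) and fell by 0.39 to 24 h (37.0, 30.5 and 32.0 CPM, adjusted p = 0.00153). In DMSO it was also highest on average at 12 h (40.1 CPM). The DMSO change from 12 to 24 h was -0.19 and missed the test (adjusted p = 0.0609), but passed without any 1 of 4 libraries (adjusted p = 0.0331 to 0.0482).

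Ciart, which binds and inhibits the ARNTL-CLOCK pair, stood out at 18 h in C59. Its C59 libraries of that hour read 5.66, 5.79 and 5.94 CPM, above the 3 DMSO libraries (3.46, 3.77 and 2.49 CPM) and above every other library of either treatment (2.16 to 5.09 CPM). Ciart was higher in C59 at 18 h by a log2 difference of 0.84 ± 0.19 (adjusted p = 0.031), and rose from 6 to 18 h in C59 by 0.99 (adjusted p = 0.00112) against -0.05 (-0.53 to 0.44) in DMSO. The 18 h call was lost without any 1 of 5 of its 6 libraries (all but C59 18 h replicate 3, adjusted p = 0.0614 to 0.117) and with the replicate number as a block (adjusted p = 0.0626). The 18 h libraries were the most variable, with a biological coefficient of variation of 12.5% against 5.41% to 7.52% at the other times.

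The REV-ERB genes are described 1 at a time, and no test compared them with each other. Nr1d1 read 2.23, 2.40 and 2.21 CPM at 1 h, 2.08, 2.08 and 2.48 at 6 h, 1.35, 2.62 and 2.09 at 12 h, 1.95, 2.17 and 1.84 at 18 h, and 1.80, 1.68 and 1.74 at 24 h in DMSO. In C59 it read 1.497, 1.54 and 2.10 CPM at 1 h, 1.51, 1.77 and 1.31 at 6 h, 1.25, 1.35 and 1.01 at 12 h, 2.81, 1.90 and 3.31 at 18 h, and 2.08, 1.90 and 2.47 at 24 h. In CPM, every C59 library was below every DMSO library at 1, 6 and 12 h, at 12 h only just (1.345 against 1.348 CPM). At 18 h the treatments overlapped, and at 24 h every C59 library was above. On the FPKM scale they overlapped at 1 h (0.682 in C59 replicate 3, 0.662 in DMSO replicate 3). The share of all genes that separate in this way was not counted. None of the differences between treatments passed the test. The 12 h difference of -0.73 ± 0.31 had an adjusted p of 0.0703. It was -0.97 without DMSO 12 h replicate 1 (adjusted p = 0.0293), and the adjusted p was 0.0148 with all 30 libraries in the fit. In C59 Nr1d1 rose from 12 to 24 h by 0.81 (adjusted p = 0.0193), a call lost without C59 12 h replicate 3 or C59 24 h replicate 3 (adjusted p = 0.0658 to 0.0743) and on the FPKM scale (adjusted p = 0.0561 with a pseudocount of 1). Nr1d2 lay between 9.21 and 13.9 CPM in DMSO and between 7.87 and 13.6 CPM in C59 with no difference between treatments past the test at any time. It fell in C59 from 1 h (12.99, 13.6 and 12.1 CPM) to 24 h (7.87, 8.69 and 10.4 CPM) by 0.54 on the log2 scale (adjusted p = 0.00523).

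Arntl, the activator, declined over the day in both treatments. In DMSO it read 14.6, 15.2 and 12.2 CPM at 1 h, 14.5, 14.3 and 12.9 at 6 h, 13.1, 11.02 and 12.95 at 12 h, 11.1, 11.2 and 10.05 at 18 h, and 10.1, 9.96 and 9.95 at 24 h. In C59 it read 16.6, 14.998 and 15.1 CPM at 1 h, 12.3, 11.2 and 12.2 at 6 h, 9.86, 9.67 and 8.64 at 12 h, 8.14, 9.59 and 9.68 at 18 h, and 10.96, 10.05 and 9.49 at 24 h. The 1 h libraries lay above the 24 h libraries in both treatments, and the 12 h libraries of C59 lay below those of DMSO. From 1 to 24 h Arntl fell by 0.48 in DMSO (adjusted p = 0.000569) and by 0.63 in C59 (adjusted p = 8.68e-05). On the FPKM scale by limma the DMSO difference was -0.18 with a pseudocount of 1 and did not pass (adjusted p = 0.0987), nor did the DMSO course over the 5 times (adjusted p = 0.0941). In C59 Arntl had already fallen by 0.72 from 1 to 12 h (adjusted p = 2.03e-05), and its later difference from 12 to 24 h was 0.09 (-0.13 to 0.31). At 12 h Arntl was lower in C59 by a log2 difference of -0.40 ± 0.12 (adjusted p = 0.0173). That call was lost without DMSO 12 h replicate 1 or 3 or C59 12 h replicate 3 (adjusted p = 0.0593 to 0.0686), and on the FPKM scale by limma (adjusted p = 0.0839 with a pseudocount of 1).

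Dbp, the output factor, rose in both treatments. In DMSO it read 4.47, 4.90 and 4.52 CPM at 1 h, 4.61, 5.83 and 5.14 at 6 h, 5.64, 5.57 and 4.58 at 12 h, 6.82, 5.73 and 7.73 at 18 h, and 8.34, 8.67 and 8.56 at 24 h. In C59 it read 4.36, 4.98 and 4.15 CPM at 1 h, 4.79, 5.44 and 4.37 at 6 h, 11.2, 8.83 and 6.67 at 12 h, 10.1, 10.3 and 7.53 at 18 h, and 8.46, 8.38 and 7.75 at 24 h. The 24 h libraries lay above every library of 1 and 6 h in each treatment. From 1 to 24 h the log2 rise was 0.88 ± 0.13 in DMSO (adjusted p = 2.51e-05) and 0.85 ± 0.18 in C59 (adjusted p = 0.00106). At 12 h the C59 libraries were above the DMSO libraries by 0.75 ± 0.19 (adjusted p = 0.00844), and by 24 h the difference was -0.05 (-0.30 to 0.20). Of the exonic bases of Dbp, 18.0% also lie in exons of Sphk2 on the opposite strand, 8.55% of those of Nr1d1 in exons of Thra, and 4.67% of those of Cry2 in exons of a noncoding gene. Cufflinks was run with an unstranded library type, so the FPKM values do not use strand. Whether the counts used strand is not stated, so reads there cannot be assigned with certainty.

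Counted by time point, 0 to 4 of the 10 members passed the test between C59 and DMSO. At 1 h 0 of 10 passed the test, against 2.75% of all genes tested (1 member, Cry2, at an unadjusted p under 0.05, and 0 by DESeq2 as well). At 6 h 1 passed (Cry1, lower), against 19.6% of all genes. At 12 h 4 passed, Per3 and Dbp higher and Cry1 and Arntl lower, against 47.5% of all genes. At 18 h 1 passed (Ciart, higher), against 7.08%, and with all 30 libraries in the fit 5 did (Per1, Per2, Per3, Ciart and Dbp), against 27.5% of all genes in that fit. At 24 h 0 passed, against 6.44% (1 member, Cry2, at an unadjusted p under 0.05, and 0 by DESeq2). No member also exceeded a log2 difference of 1, the size the study asked of a changed gene, which 0.283%, 1.17%, 4.95%, 1.29% and 0.819% of all genes did at 1, 6, 12, 18 and 24 h.

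**Figure D2:**
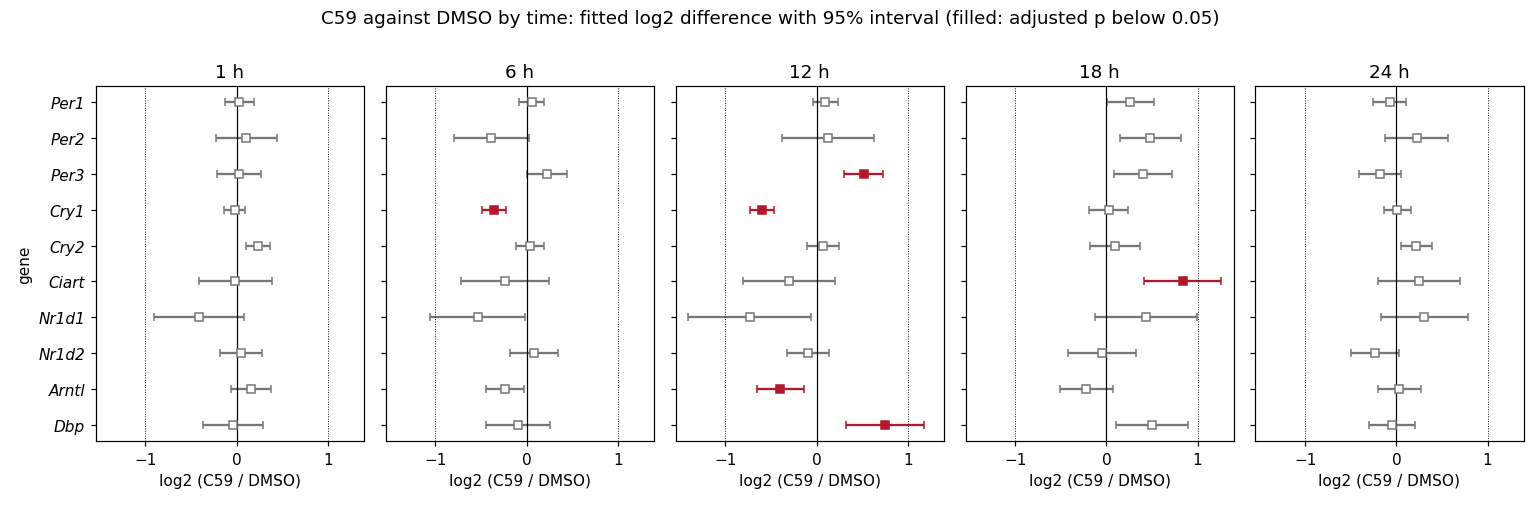
Fitted log2 difference of C59 against DMSO (horizontal axes, dotted lines at a log2 difference of 1 either way) for the 10 clock genes at 1, 6, 12, 18 and 24 h, with 95% intervals and filled squares for adjusted p below 0.05. The filled squares are Cry1 at 6 h, Per3, Cry1, Arntl and Dbp at 12 h, and Ciart at 18 h, and all lie within the dotted lines.

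Summed levels of tissue markers also differed between the treatments at these hours, and at 24 h, when no member passed. At 12 h the summed FPKM of 6 surface ectoderm markers was 125 to 169 in C59 and 92.9 to 105 in DMSO, that of 6 limb mesenchyme markers 272 to 289 and 347 to 366, that of 4 endothelial markers 58.3 to 65.5 and 43.7 to 47.3, and that of 2 neural crest markers 12.4 to 17.1 and 5.36 to 7.69. The 6 erythroid markers summed to 6157 to 9052 in C59 and 4716 to 6800 in DMSO, which overlapped, and no marker of these lists was at 0 in either group. The 4 macrophage markers summed to 5.70 to 7.30 in C59 and 3.37 to 3.93 in DMSO at 12 h, and to 6.84 to 8.58 and 5.28 to 6.26 at 18 h. Also at 18 h, the ectoderm markers summed to 117 to 151 in C59 and 95.8 to 107 in DMSO, the limb mesenchyme markers to 269 to 315 and 345 to 357, 4 muscle precursor markers to 18.2 to 24.7 and 33.1 to 37.3, and the neural crest markers to 12.9 to 15.5 and 9.76 to 10.9. At 6 h the limb mesenchyme markers summed to 276 to 293 in C59 and 362 to 388 in DMSO, the muscle precursor markers to 32.1 to 34.1 and 22.0 to 24.0, and the neural crest markers to 5.51 to 7.25 and 4.20 to 4.82. At 24 h the ectoderm markers summed to 142 to 157 in C59 and 117 to 121 in DMSO, and the muscle precursor markers to 31.1 to 33.1 and 39.2 to 45.7. The macrophage markers summed to 7.60 to 8.54 and 5.88 to 7.24, and the endothelial markers to 42.1 to 46.1 and 48.9 to 50.6. Limb mesenchyme, neural crest and erythroid sums overlapped at 24 h. The 3 liver markers summed to 0.0740 to 20.2 in DMSO at 12 h and to 0.125 to 15.7 in C59 at 24 h. In each other group their highest sum was 0.492 or less. Summed FPKM of 4 Y-linked genes was 19.8 to 33.2 in the C59 libraries and 0 in the DMSO libraries of 6 h. At 1 h it was 21.25 to 38.2 and 0.05 to 9.03. These sums also differed between times within a treatment. In C59 they were 18.82, 0.11 and 0.42 at 12 h and 19.26 to 24.98 at 24 h. In DMSO they were 0.15, 38.56 and 0.24 at 12 h and 20.14, 0.01 and 19.62 at 24 h. At 18 h both groups held low and high sums. The part of tissue makeup or embryo sex in the differences of the clock genes, between treatments or between times, was not tested.

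A course shared by both treatments was looked for first in the change from 1 to 12 h and back to 24 h. In DMSO, 1 member passed the test between 1 and 12 h (Cry2), against 22.9% of all genes, and 4 passed between 12 and 24 h (Per2, Per3 and Dbp higher, Arntl lower), against 36.9%. In C59, 5 passed between 1 and 12 h (Dbp higher, Cry1, Cry2, Nr1d2 and Arntl lower), against 53.5%, and 6 passed between 12 and 24 h (Per2, Cry1, Cry2 and Nr1d1 higher, Per1 and Per3 lower), against 37.8%. The Nr1d2 call between 1 and 12 h was lost without any 1 of 5 of the 6 C59 libraries of those hours (all but C59 1 h replicate 3, adjusted p = 0.0556 to 0.0885) and on the FPKM scale (0.108 with a pseudocount of 1), and the Arntl call between 12 and 24 h in DMSO without any 1 of 5 of its 6 (all but DMSO 12 h replicate 2, adjusted p = 0.0566 to 0.112). A gene that swings by 12 h and returns by 24 h passes both with opposite signs. In DMSO 0 members did so by edgeR, against 1.32% of all genes; DESeq2 also gave 0, and at an unadjusted p under 0.05 1 did (Per3). In C59 2 did, Cry1 and Cry2, against 20.2%, and 0 did so in both treatments, against 0.454%. The return of Cry2 in C59 was 0.24 (adjusted p = 0.044) and was lost in 11 of the 15 fits that leave out 1 C59 library (adjusted p = 0.0566 to 0.174) and with upper-quartile factors (0.0896) or on the FPKM scale (0.0695 with a pseudocount of 1), while that of Cry1 was 0.51 (adjusted p = 1.02e-05) and was kept in each.

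**Figure D3:**
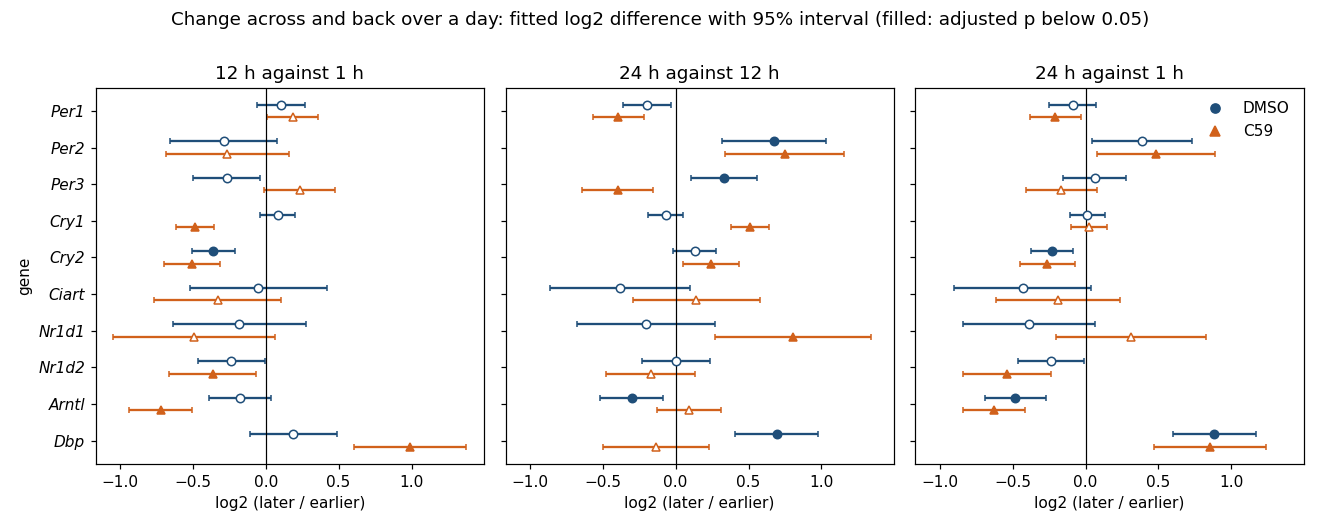
Fitted log2 change from 1 to 12 h, from 12 to 24 h and from 1 to 24 h (horizontal axes) for the 10 clock genes in DMSO (circles) and C59 (triangles), with 95% intervals and filled symbols for adjusted p below 0.05. Only Cry1 and Cry2 in C59 have filled symbols on opposite sides of 0 in the first and second panels, and Cry2, Arntl and Dbp are filled on the same side in both treatments in the third.

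Changes that passed with the same sign in both treatments were then counted. Between 1 and 24 h, 3 members passed in DMSO (Dbp higher, Cry2 and Arntl lower; 56.5% of all genes) and 6 in C59 (Per2 and Dbp higher, Per1, Cry2, Nr1d2 and Arntl lower; 49.6%). Cry2, Dbp and Arntl passed with the same sign in both, 3 of 10 members against 39.3% of all genes, and none with opposite signs (0.168% of all genes). On the FPKM scale by limma with a pseudocount of 1, Cry2 missed the test in DMSO (-0.12, adjusted p = 0.17) and C59 (-0.14, adjusted p = 0.244) and Arntl in DMSO (-0.18, adjusted p = 0.0987), so that of these 3 Dbp alone passed in both, while Per2 rose past the test in both (adjusted p = 0.0429 in DMSO and 0.0229 in C59). Of the C59 calls, Per1 was lost in 10 and Per2 in 9 of the 15 fits without 1 library (adjusted p up to 0.221 and 0.172), Per1 also by DESeq2 (0.0505) and on the FPKM scale (0.695), Per2 also without the filter on low counts (0.0553), and Cry2 without C59 1 h replicate 3 or C59 24 h replicate 2 or 3 (0.0669 to 0.0809). The DMSO call of Cry2 was lost without DMSO 24 h replicate 2 (adjusted p = 0.0573). Between 6 and 18 h, 4 passed in DMSO (33.9% of all genes) and 8 in C59 (38.3%), and 4 passed with the same sign in both: Per2, Cry2 and Dbp rose and Arntl fell, against 18.6% of all genes, and none with opposite signs, against 1.02%. On that FPKM scale Arntl missed the test over these hours in DMSO (adjusted p = 0.0554) and C59 (0.0933). The Dbp rise between 6 and 18 h in DMSO was 0.37 (adjusted p = 0.0466) and missed the test in 12 of the 15 fits without 1 DMSO library (adjusted p = 0.0512 to 0.194) and by DESeq2 (adjusted p = 0.0644). In C59 the Per3 rise of 0.31 over those hours was lost without C59 6 h replicate 1 or 2 or C59 18 h replicate 2 (adjusted p = 0.0575 to 0.174), and the Nr1d1 rise of 0.80 without C59 6 h replicate 3 or C59 18 h replicate 3 (0.0594 to 0.072). Cry2 alone passed with the same sign in both from 1 to 12 h (18.0% of all genes, 0.593% with opposite signs). Per2 alone did so from 12 to 24 h (10.2%), when Per3 passed with opposite signs (7.91%).

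Over all 5 times, 4 members varied past the test in DMSO, against 57.3% of all genes: Dbp by a log2 range of 0.88 (adjusted p = 0.000124), Per2 by 0.74 (0.00331), Arntl by 0.48 (0.00135) and Cry2 by 0.45 (0.000301). In C59 all 10 varied past the test, against 71.1% of all genes, by ranges of 0.39 (Per1) to 1.41 (Per2). The Nr1d2 course in C59, a range of 0.54 (adjusted p = 0.035), was lost without C59 1 h replicate 1 or 2 or C59 24 h replicate 1 or 2 (adjusted p = 0.0577 to 0.0788), and on the FPKM scale (adjusted p = 0.191 with a pseudocount of 1). The difference between treatments itself changed with time for 6 members, against 40.7% of all genes: Nr1d1, Ciart, Dbp, Per3, Cry1 and Arntl. For Per1, Per2, Cry2 and Nr1d2 that test did not pass (adjusted p = 0.103 to 0.502), which does not show that their courses were alike.

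A cosine of 24 h period with a straight line beside it was fitted to the group means. With 5 times a treatment this leaves little room to judge the shape. Averaged over the treatments the cosine passed the test for 8 members, all but Dbp and Nr1d1, against 47.6% of all genes. An average can pass on a curve in C59 alone, so this count does not show a course common to both treatments. The amplitude was 0.08 in DMSO and 0.29 in C59 for Cry1, and 0.09 and 0.62 for Ciart. The largest amplitudes on the log2 scale were those of Per2 (0.49, peak at 20.1 h after injection, adjusted p = 2.8e-05), Ciart (0.34, peak at 18.6 h) and Cry2 (0.29, peak at 20.9 h, adjusted p = 1.15e-07). The others had amplitudes of 0.11 to 0.16: Nr1d2 peaked at 19.8 h, Per3 at 17.7 h, Cry1 at 23.2 h, Per1 at 13.6 h and Arntl at 1.69 h. The cosine differed between the treatments past the test for Cry1 (0.36), Per3 (0.33), Dbp (0.47) and Arntl (0.26), 4 of 10 against 38.4% of all genes. The averaged cosine was lost for Nr1d2 in 10 of the 30 fits that leave out 1 library (adjusted p up to 0.0815). It was lost for Per3 in 5 (up to 0.0974), and for Arntl without C59 12 h replicate 3 or C59 24 h replicate 1 (0.0619 to 0.0751). On the FPKM scale with a pseudocount of 1 it was lost for Per3 (adjusted p = 0.112) and Ciart (0.0518), and with upper-quartile factors for Arntl (0.0599).

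In DMSO alone the amplitudes were smaller than in C59 for all members but Nr1d2, from 0.03 for Nr1d1 to 0.31 for Per2, against 0.16 for Nr1d2 to 0.69 for Per2 in C59. Per2 peaked at 21.1 h in DMSO and 19.6 h in C59, Cry2 at 20.4 and 21.2 h, and Nr1d2 at 20.02 and 19.7 h, and these 3 pairs of peaks lay within 2 h of each other. Cry1 peaked at 7.45 h in DMSO and 22.3 h in C59, Per3 at 22.1 and 15.6 h, and Dbp at 1.29 and 14.98 h. The peaks of Arntl were at 7.82 h in DMSO and 0.55 h in C59. Amplitudes this small give poorly set peak hours, and no interval was computed for them.

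**Figure D4:**
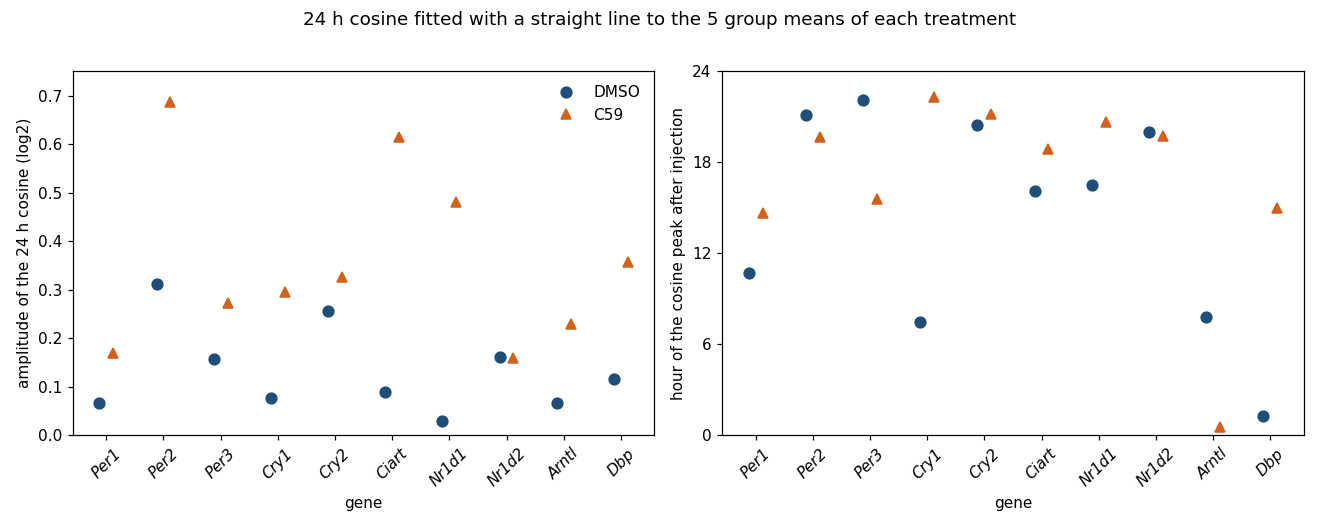
Amplitude (left, log2) and peak hour after injection (right) of the 24 h cosine fitted to the group means of DMSO (circles) and C59 (triangles) for the 10 clock genes, without error bars. Per2 has the largest amplitude in both treatments, 0.31 in DMSO and 0.69 in C59, and the peak hours of Per2, Cry2 and Nr1d2 lie close together in the 2 treatments.

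Of 20 further genes of the clock, 17 to 19 could be tested in each comparison. Between C59 and DMSO 1 passed after 1 h (Nfil3, lower) and 4 after 6 h (all lower). At 12 h 4 passed as higher and 3 as lower, at 18 h 1 did (Tef, higher), and 24 h gave 0 by edgeR. Over all genes the shares were 2.75%, 19.6%, 47.5%, 7.08% and 6.44% from 1 to 24 h. Nfil3, a repressor of D-box genes, was lower in C59 by -0.27 at 1 h and -0.69 at 6 h (adjusted p = 3.58e-05), and fell in DMSO from 38.9 ± 2.01 CPM (SD, n = 3) at 1 h to 24.7 ± 1.01 at 24 h. Tef, a relative of Dbp, rose from 6 to 18 h by 0.39 in DMSO and 0.93 in C59. Rora, an activator at ROR elements, was higher in C59 at 12 h by 0.57 ± 0.16.

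From 1 to 24 h in DMSO 5 of 18 further clock genes rose and 6 fell, against 56.5% of all genes past the test, among them Hlf (2.06), Bhlhe41 (1.68) and Rora (1.06) higher and Nfil3 (-0.65) lower. In C59 5 of 19 rose and 6 fell, against 49.6%, among them Bhlhe41 (2.54), Hlf (2.09) and Arntl2 (1.24) higher. At 1 h Hlf and Bhlhe41 averaged only 0.47 and 0.56 CPM in DMSO, and 0.47 and 0.26 CPM in C59, where Arntl2 averaged 0.53 CPM. These levels lie below those of Nr1d1, so such large fold changes are imprecise. The cosine averaged over the treatments passed for 8 of 19, against 47.6% of all genes. Its median amplitude was 0.11 over the list and 0.12 over all genes. Lists of genes of pathways that can set or shift clocks were also counted, to be read against the same shares of all genes between C59 and DMSO, 19.6% at 6 h and 47.5% at 12 h. Of 11 glucocorticoid response genes 0 passed between C59 and DMSO after 1 h, 6 passed by 6 h, 5 at 12 h, 1 at 18 h and 0 after the full 24 h. Of 6 or 7 immediate early genes 1 or 2 passed at each time, Egr1 higher at 1, 6, 18 and 24 h. Of 7 or 8 temperature and heat shock genes 1 passed after 1 h and 6 by 6 h, then 5 at 12 h (all lower), 3 at 18 h and 0 at the end. Their part in the differences of the clock genes was not tested.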

How the data were processed

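Pairs of forelimb buds (30 libraries in 10 groups of 3, by the GEO labels) were profiled by polyA RNA-seq. The authors trimmed reads with Cutadapt 1.16, aligned them to mm10 with STAR 2.7.0e and deposited raw read counts per gene, made by STAR by their methods. The authors also deposited FPKM values from Cufflinks 2.2.1, with multi-read and bias correction. Cufflinks was run with an unstranded library type, but whether the counts used strand is not given in the sources used here. As in the study, only protein-coding autosomal genes were tested.

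The main test was edgeR 4.0.16 (quasi-likelihood F test, TMM, R 4.3.3) on the counts, after a filter on low values (at least 10 reads in enough libraries, 15 in all), and Benjamini-Hochberg adjustment over all genes tested, two-sided. "Passed" means adjusted p below 0.05. Each C59 against DMSO comparison used the 6 libraries of its time, each course the 15 libraries of its treatment, and the test of C59 by time and the cosine all 30. A course is tested by 1 F test over 5 group means and described by their range. The 24 h cosine came from contrasts of the group means that fit a constant, a straight line, a cosine and a sine.

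Alternatives were DESeq2 1.42.0, upper-quartile factors, no low-count filter, all autosomal genes, limma 3.58.1 on log2 FPKM with pseudocounts of 1 and 0.1, all 30 libraries in the fit, the replicate number as a block, a minimum log2 change of 1, and each library left out. The scripts were tested on simulated counts. The 10 members and the gene lists were chosen with earlier results of these data known. Named genes were all members, Axin2, up to 4 genes a list with the largest change among those past the test, and the 3 genes nearest in pattern to each of the 2 members of widest range. Gene names and positions came from GENCODE on GRCm38, and 205 counted genes had no annotation match. Replicates were compared before averaging, and none of 30 pairs within groups agreed within sampling noise (chi-square per degree of freedom 3.31 to 42.2). The values of 1 gene in the list of further clock genes are not reported here.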

Additional observations from a re-analysis of the deposited data

Results flagged for a closer look

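The effect of C59 differed between the 5 times, by the edgeR test of C59 by time over all 30 libraries, for 6 of the 10 clock genes, against 40.7% of all genes tested. The range of the C59 minus DMSO log2 difference over the 5 times was 1.15 for Nr1d1 (adjusted p = 0.00991), 1.12 for Ciart (0.0219), 0.84 for Dbp (0.0066), 0.71 for Per3 (0.00358), 0.61 for Cry1 (5.14e-07) and 0.55 for Arntl (0.012). For Nr1d1 the log2 difference ran from -0.73 at 12 h to 0.44 at 18 h, though it passed at neither time, and for Ciart from -0.30 to 0.84 between the same times. The Ciart call was lost without DMSO 18 h replicate 3 (adjusted p = 0.071).

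The fitted 24 h cosine differed between C59 and DMSO past the test for 4 members. The amplitude of the difference was 0.47 for Dbp, 0.36 for Cry1, 0.33 for Per3 and 0.26 for Arntl on the log2 scale, and it remained past the test for all 4 in each of the 30 fits that left out 1 library. Ciart had the larger amplitude of 0.55 and missed the test (adjusted p = 0.0549), and it passed in 9 of those 30 fits. The causes of these differences were not tested.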

How the results depend on the processing

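The count of members past the test stayed within 1.5 times of the reported one in most settings. At 18 h it was 0 with the replicate block (3.56% of all genes) and 5 with all 30 libraries in the fit (27.5%), against 1 (7.08%). With limma on log2(FPKM + 0.1), 3 members passed between 12 and 24 h and 3 between 1 and 24 h in C59, against 6 in each. A further demand of a log2 value beyond 1 left 0 members at 6, 12 and 18 h, 0 in the DMSO course and in all 4 DMSO contrasts, 3 in the C59 course, 0 in the C59 contrasts of 12 and 1 h, 24 and 12 h and 24 and 1 h, 1 in that of 18 and 6 h (Per2), 2 for C59 by time, and 0 for both cosine tests. Leaving out 1 library gave 0 to 2 members at 18 h, 1 to 2 for 12 against 1 h, 2 to 5 for 24 against 12 h, 3 to 5 for 24 against 1 h and 2 to 4 for 18 against 6 h in DMSO, and 3 to 6 for 24 against 1 h in C59; other counts stayed within 1.5 times. Of the calls past the test, 22 member and comparison pairs lost theirs without at least 1 library and 22 others gained one. Of 2540 values compared with the main fit, 63 changed sign. None of these was past the test in either fit, and none was larger than 0.14 on the log2 scale. The cause of these shifts was not tested.

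Replicate numbers did not pair the libraries: over 135 pairs of libraries with the same number the correlation of deviations ran from -0.68 to 0.50 (median 0.0046), and 13 of 30 libraries correlated best with their own number. With the replicate block, Ciart at 18 h (0.86, adjusted p = 0.0626) missed the test. Depth limits Nr1d1 most, with 22 to 81 reads a library.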

Other observations

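Among all protein-coding genes, those nearest to Per2 in the course of centred log2 CPM over the 10 groups were Tmem150a, Ltb4r1 and H2ac11, with root mean square differences of 0.15, 0.15 and 0.16. Nearest to Nr1d1 were Rab20, Muc13 and Slc5a6, at 0.12, 0.14 and 0.15. None of these 6 is on the list of further clock genes. The likeness rests on 10 group means that share depth and libraries, and is a description.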
